A study of Mus musculus with 6 samples.

Results

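Histone acetylation is written by acetyltransferases, removed by deacetylases and read by bromodomain proteins, and 34 genes of this machinery were followed in pancreatic islets of mice with and without the bile acid receptor FXR. The genes were chosen by symbol, and all 34 were found among the 19342 genes of the deposited count table. They comprise 10 acetyltransferases (writers), 4 nuclear receptor coregulators, 4 class I, 4 class IIa and 3 class IIb or IV histone deacetylases (HDACs), 7 sirtuins and 2 bromodomain readers of the BET family. Islets came from FXR+/+ mice (labelled WT) and FXR-/- mice (labelled FXR knockout), with 3 libraries per genotype, of which 1 was from a female and 2 were from males. All mice were labelled as 3 months old and no treatment other than isolation of the islets from the pancreas is named. The sources used here do not say if islets of several mice were pooled for a library or which part of the FXR gene is deleted, so the p-values measure the spread between these libraries, which may in part be technical.

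Acetylation of lysines loosens the contact between histones and DNA, and acetylated lysine 27 of histone H3 marks active promoters and enhancers. The acetyltransferases p300 and CBP, encoded by *Ep300* and *Crebbp*, place this mark and are recruited by many transcription factors, nuclear receptors included. Nuclear receptors such as FXR exchange coactivators of the SRC family, which bring in p300 and CBP, for the corepressor NCoR1, which carries HDAC3. FXR itself is acetylated by p300 and deacetylated by SIRT1. The study examined p300 and acetylated H3 at the promoter of *Cox6a2* in a cell line by chromatin immunoprecipitation. It also reported that an inhibitor of p300 undid the rise of *Cox6a2* mRNA on knockdown of FXR in these cells. Neither experiment is analysed here. The islet libraries show whether the RNA of the enzymes themselves differed between the genotypes, and not where p300 was recruited.

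The libraries held 20629306 to 30139235 reads counted on genes, of which the 34 genes together took 0.185% to 0.235%. *Nr1h4*, which encodes FXR, had 333, 274 and 386 reads in the FXR+/+ libraries and 140, 145 and 138 in the FXR-/- libraries. It was lower in every FXR-/- library while reads remained (log2 fold change -1.07, standard error 0.16, adjusted p = 0.215 in edgeR). *Cox6a2* was at 34.7 ± 4.96 CPM (counts per 1000000 reads, SD, n = 3) in FXR+/+ and at 76.1 ± 21.3 in FXR-/- islets. Its log2 fold change was 1.12 (adjusted p = 0.197 in edgeR), so that neither gene was called at an adjusted p under 0.05 in the main edgeR fit. The markers of β-cells (8 genes) summed to between 185747 and 270030 CPM, with a median log2 fold change of 0.15 (2 of 8 higher at an unadjusted p under 0.05) that ran from -0.14 to 0.57 for *Mafa*, a β-cell transcription factor (adjusted p = 0.215 in edgeR). RNA of acinar cells, the exocrine cells around the islets, varied more. The 20 acinar genes took 5.06% to 14.2% of the reads in FXR+/+ and 7.38% to 14.7% in FXR-/- libraries. This share was highest in male 1 of each genotype. The acinar genes had a median log2 fold change of 0.44 (19 of 20 above 0, 0 at an unadjusted p under 0.05). The ductal markers had one of 0.37 (2 of 5 tested higher at an unadjusted p under 0.05). They summed to 239.2 to 277.8 CPM in FXR+/+ and 226.6 to 266.7 CPM in FXR-/- libraries, and the part of ductal cells in the values of the members was not tested. The 8 macrophage markers had a median log2 fold change of 0.43 (4 higher at an unadjusted p under 0.05), and the 7 markers of stellate cells and fibroblasts one of 0.87 (0 at an unadjusted p under 0.05). They summed to 111.8 to 152.2 and 42.3 to 149.6 CPM in FXR+/+, and to 150.1 to 183.8 and 119.1 to 144.3 CPM in FXR-/- libraries, and their part in the values of the members was not tested. In whole islets, fewer cells of a type and less RNA per cell cannot be told apart.

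No gene of the acetylation machinery was called changed between the genotypes. With edgeR's quasi-likelihood test, 0 of the 34 had an adjusted p under 0.05 (lowest 0.430, *Sirt1*), and so had 0% of the 14619 genes tested (lowest 0.129). All 34 passed the filter on low counts. At an unadjusted p under 0.05, 1 member was higher in FXR-/- islets (*Ncor1*), against 6.19% of all genes, and 1 was lower (*Sirt1*), against 4.16% of all genes. DESeq2 called 0 members at an adjusted p under 0.05 (lowest 0.288), where it called 1.06% of the genes with an adjusted p, and had 2 members at an unadjusted p under 0.05, against 8.87% of those genes.

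The differences of the members were small and the intervals narrow. Their median log2 fold change was -0.01, beside 0.01 over all genes tested, and 16 of the 34 lay above 0. The log2 fold change lay within 0.25 of 0 for 32 of the 34 (94.1%), *Hdac9* and *Sirt1* being the other two, and for 73.6% of all genes. The 95% interval of the log2 fold change lay within 0.5 on either side of 0 for 31 members (91.2%), against 54.7% of all genes, and *Hdac7*, *Hdac9* and *Sirt1* were outside. The members were also steady among replicates, with a median coefficient of variation of 5.33% in FXR+/+ and 7.53% in FXR-/- islets, beside 10.1% and 11.2% over all genes. The members were more abundant than the typical gene tested (median 46.0 CPM against 17.8 in FXR+/+).

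**Figure D1:**
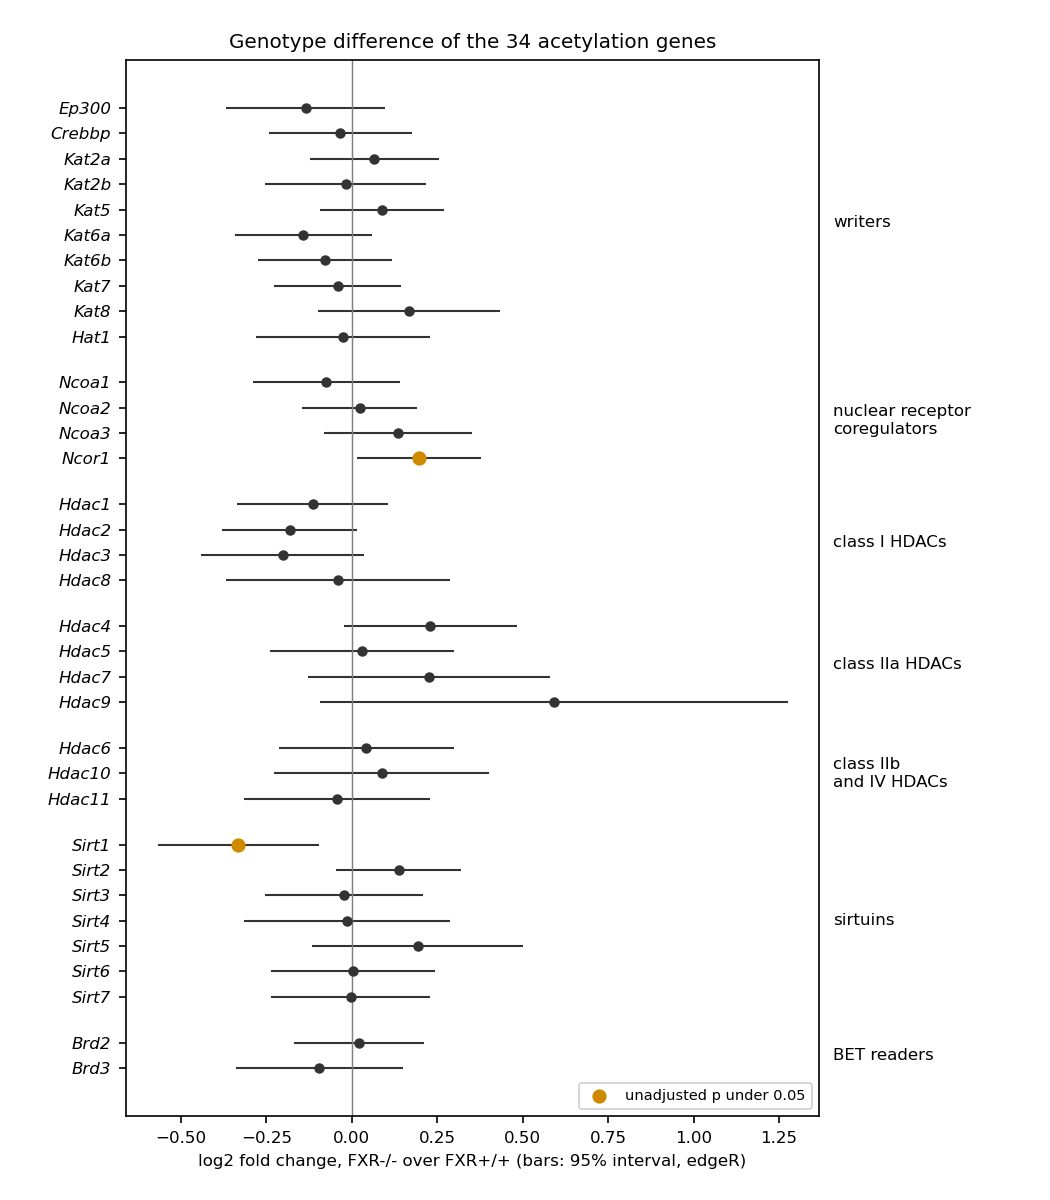
Log2 fold change of each of the 34 genes, FXR-/- over FXR+/+, by class, with points for the edgeR estimate and bars for its 95% interval. The intervals of *Ncor1* (0.01 to 0.38) and *Sirt1* (-0.57 to -0.10), in orange, leave 0 out before adjustment, and that of *Hdac9* is the widest (-0.09 to 1.27).

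*Ep300* (NCBI gene 328572, plus strand of chromosome 15, 81585351-81652077 in GRCm38) encodes p300, the acetyltransferase the study followed at *Cox6a2*. It was at 91.3, 95.6 and 105.7 CPM in female 1, male 1 and male 2 of FXR+/+ and at 99.0, 83.4 and 84.7 CPM in those of FXR-/-. The female FXR-/- library lay among the FXR+/+ values and both male FXR-/- libraries lay below all of them. The means were 97.6 ± 7.39 and 89.0 ± 8.64 CPM (SD, n = 3), with a log2 fold change of -0.14 (standard error 0.10, 95% interval -0.37 to 0.10, adjusted p = 0.608 in edgeR). The interval corresponds to a change between -22.5% and 7.05%. The value was -0.26 without either female library, -0.06 without FXR+/+ male 2, -0.08 with a term for acinar RNA and -0.07 with summed exon counts, which hold 55.0% of its reads on the gene. In the males alone the log2 fold change was -0.26 with an unadjusted p of 0.0428 and an adjusted p of 0.593 in edgeR, and the interaction of genotype and sex for *Ep300* had an unadjusted p of 0.0764 and an adjusted p of 1.00.

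*Crebbp* (NCBI gene 12914, minus strand of chromosome 16, 4081328-4213997) encodes CBP, the close relative of p300. It was at 62.9, 62.6 and 64.6 CPM in FXR+/+ and at 66.6, 64.2 and 55.2 CPM in FXR-/-, in the order female 1, male 1 and male 2. The genotypes overlapped, male 2 of FXR-/- being below and the other two within or above the FXR+/+ range. The log2 fold change was -0.03 (standard error 0.09, 95% interval -0.24 to 0.18). Per kilobase of exon, *Ep300* stood at 6.83 ± 0.52 and *Crebbp* at 4.68 ± 0.08 CPM (SD, n = 3) in FXR+/+ islets.

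The other 8 writers spanned log2 fold changes from -0.14 (*Kat6a*, the MOZ acetyltransferase) to 0.17 (*Kat8*, which acetylates lysine 16 of histone H4). Over the 16 alternative analyses *Kat6a* ran from -0.24 to -0.08 and *Kat8* from 0.07 to 0.25. In the main fit, 0 of the 10 writers had an unadjusted p under 0.05. *Kat2b*, which encodes PCAF and had the highest level of the writers per kilobase of exon, was at 62.4, 60.0 and 66.8 CPM in FXR+/+ and at 66.5, 54.4 and 66.1 CPM in FXR-/-. The lowest value was that of male 1 of FXR-/-, and the other two FXR-/- libraries lay within the FXR+/+ range. *Kat5*, which encodes TIP60, was at 34.5, 36.9 and 36.0 CPM in FXR+/+ and at 38.4, 38.4 and 37.4 CPM in FXR-/-. Its genotypes did not overlap, but the log2 fold change was 0.09 (95% interval -0.09 to 0.27), and 12.1% of its exon length is shared with *Rnaseh2c* on the opposite strand. *Hat1*, which acetylates new histone H4 before its assembly into chromatin, differed by -0.03.

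Among the 4 nuclear receptor coregulators, the corepressor was the member with an unadjusted p under 0.05. *Ncor1* (NCBI gene 20185, minus strand of chromosome 11, 62316426-62458541) was at 238.9, 227.1 and 223.7 CPM in FXR+/+ and at 271.4, 265.1 and 253.4 CPM in FXR-/-. Each FXR-/- library was above every FXR+/+ library. The means were 229.9 ± 7.99 and 263.3 ± 9.16 CPM (SD, n = 3), with a log2 fold change of 0.20 (standard error 0.08, 95% interval 0.01 to 0.38), an unadjusted p of 0.0379 and an adjusted p of 0.467 in edgeR. An exact permutation test over the 20 ways to divide the libraries gave the smallest p that 3 against 3 libraries allow, 0.10. *Ncor1* passed the unadjusted threshold under 6 of 16 other settings. In edgeR it did not pass with scaling by library size alone (log2 fold change 0.10, unadjusted p = 0.344), with summed exon counts, which hold 23.5% of its reads (0.08, unadjusted p = 0.405), with a term for acinar RNA (0.18, unadjusted p = 0.0568) or in males alone (0.20, unadjusted p = 0.104). It also did not pass when any 1 of the 6 libraries was left out (log2 fold change 0.17 to 0.21). Without either female library the fit rests on the males, so those settings repeat the one in males alone.

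The SRC coactivators *Ncoa1*, *Ncoa2* and *Ncoa3*, which bind the receptors when a ligand is present, had log2 fold changes of -0.07, 0.02 and 0.14. At an unadjusted p under 0.05 there were 0 of the 3. *Ncoa3* was at 0.22 without FXR+/+ male 2 (unadjusted p = 0.0463 and adjusted p = 0.772 in edgeR) and at 0.08 without either female library. *Ncoa1* was at 107.5 CPM in the female and at 86.5 and 85.2 CPM in the male FXR-/- libraries, against 97.8, 92.9 and 101.6 CPM in FXR+/+. All 4 coregulators had their highest value in the FXR-/- female, as had 15.4% of all genes tested. Of 4 other subunits of the NCoR complex (*Tbl1x*, *Tbl1xr1*, *Gps2* and *Coro2a*), 0 had an unadjusted p under 0.05 and the median log2 fold change was 0.08.

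Of the class I deacetylases, HDAC1, HDAC2 and HDAC3 are catalytic subunits of nuclear corepressor complexes, while HDAC8 acts outside them. All 4 had log2 fold changes below 0 (-0.11 for *Hdac1*, -0.18 for *Hdac2*, -0.20 for *Hdac3* and -0.04 for *Hdac8*), and 0 had an unadjusted p under 0.05. *Hdac1*, highest of the class per kilobase, was at 68.8, 67.5 and 73.9 CPM in FXR+/+ and at 69.6, 57.6 and 67.2 CPM in FXR-/-. *Hdac2* was at 76.4, 64.4 and 72.3 CPM in FXR+/+ and at 67.1, 57.2 and 63.6 CPM in FXR-/-. The groups overlapped for both genes, while *Hdac2* was lower in FXR-/- within each pair of libraries of the same number (below the unadjusted 0.05, with adjusted p = 0.300 in edgeR, with the block). Without FXR-/- male 1, *Hdac1* was at -0.04 and *Hdac3* at -0.11. *Hdac3* was at -0.30 without FXR-/- male 2 and *Hdac2* at -0.23 without FXR+/+ male 1, both below the unadjusted 0.05.

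*Hdac3*, the deacetylase carried by NCoR1, was at 44.4, 47.4 and 46.6 CPM in FXR+/+ and at 39.9, 35.6 and 44.8 CPM in FXR-/-. The FXR-/- male 2 lay within the FXR+/+ range and the other two below it (log2 fold change -0.20, standard error 0.10, 95% interval -0.44 to 0.04, adjusted p = 0.503 in edgeR). All 4 class I genes were lowest in male 1 of FXR-/-, the library with the highest share of acinar RNA, and 25.8% of all genes tested were lowest there. With a term for acinar RNA in the fit, the median log2 fold change of the class was -0.08, against -0.15 without it, and it was -0.24 with library size alone and -0.18 in males alone.

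The class IIa deacetylases, which shuttle between nucleus and cytoplasm and have little catalytic activity of their own, all had log2 fold changes above 0, and 0 of the 4 had an unadjusted p under 0.05. With the replicate number as a block, *Hdac4* (adjusted p = 0.265 in edgeR) and *Hdac7* (adjusted p = 0.267 in edgeR) passed the unadjusted threshold. *Hdac5*, highest of the class per kilobase, was at 141.4, 170.2 and 127.7 CPM in FXR+/+ and at 144.7, 145.3 and 158.4 CPM in FXR-/-. Its FXR-/- values lay inside the FXR+/+ range, the log2 fold change was 0.03, and with scaling by library size alone it was -0.06. *Hdac4* was at 28.2, 23.8 and 28.9 CPM in FXR+/+ and at 35.1, 28.1 and 31.9 CPM in FXR-/- (log2 fold change 0.23, 95% interval -0.02 to 0.48). It was higher in FXR-/- within each pair, and with a term for acinar RNA its log2 fold change was 0.33 (unadjusted p = 0.00727 and adjusted p = 0.368 in edgeR). *Gm26720* on the opposite strand shares 22.4% of its exon length, and reads in that stretch may not be told apart.

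*Hdac7*, known for its role in endothelial cells, was at 28.0, 31.4 and 22.7 CPM in FXR+/+ and at 30.8, 36.8 and 28.4 CPM in FXR-/- (log2 fold change 0.23, 95% interval -0.13 to 0.58). The groups overlapped and each pair had the higher value in FXR-/-. The log2 fold change of *Hdac7* was 0.09 without FXR+/+ male 2, 0.10 without FXR-/- male 1 and 0.35 without FXR+/+ male 1. The 6 endothelial marker genes summed to between 498.0 and 586.8 CPM in FXR+/+ and between 604.3 and 987.0 CPM in FXR-/- libraries, 4 of the 6 with an unadjusted p under 0.05, among them *Plvap* (log2 fold change 0.69, unadjusted p = 0.0044 in edgeR). Their part in the value of *Hdac7* was not tested. With a term for acinar RNA the log2 fold change of *Hdac7* was 0.05.

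*Hdac9* had the lowest level of the members per kilobase of exon and the widest interval of the fold change. It was at 8.95, 6.64 and 5.05 CPM in FXR+/+ and at 8.75, 7.57 and 14.2 CPM in FXR-/-. Only male 2 of FXR-/- lay above the FXR+/+ range, and that library was 2.81 times its FXR+/+ counterpart. The log2 fold change of 0.59 (standard error 0.29, adjusted p = 0.499 in edgeR) was 0.20 when this library was left out and 0.90 without either female library. In males alone it was 0.90 with an unadjusted p of 0.0315 and an adjusted p of 0.593 in edgeR.

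*Hdac6*, the cytoplasmic deacetylase of tubulin and an X-linked gene, was the most abundant deacetylase per kilobase. It was at 130.7, 149.1 and 158.3 CPM in FXR+/+ and at 163.7, 135.4 and 151.8 CPM in FXR-/-. The female pair was higher and both male pairs lower in FXR-/-, with a log2 fold change of 0.04 over all libraries and an interaction with sex at an unadjusted p of 0.0661 (adjusted p = 1.00 in edgeR). *Hdac10* had the same pattern over the pairs (log2 fold change 0.09, interaction unadjusted p = 0.0601 in edgeR). Its log2 fold change was -0.09 in males alone, -0.01 with library size alone and 0.58 with summed exon counts (unadjusted p = 0.0452 and adjusted p = 0.511 in edgeR), which are 278 reads or 12.8% of those on the gene. *Hdac11*, the class IV enzyme, had a log2 fold change of -0.04, and 17.9% of its exon length is shared with genes on the opposite strand.

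**Figure D2:**
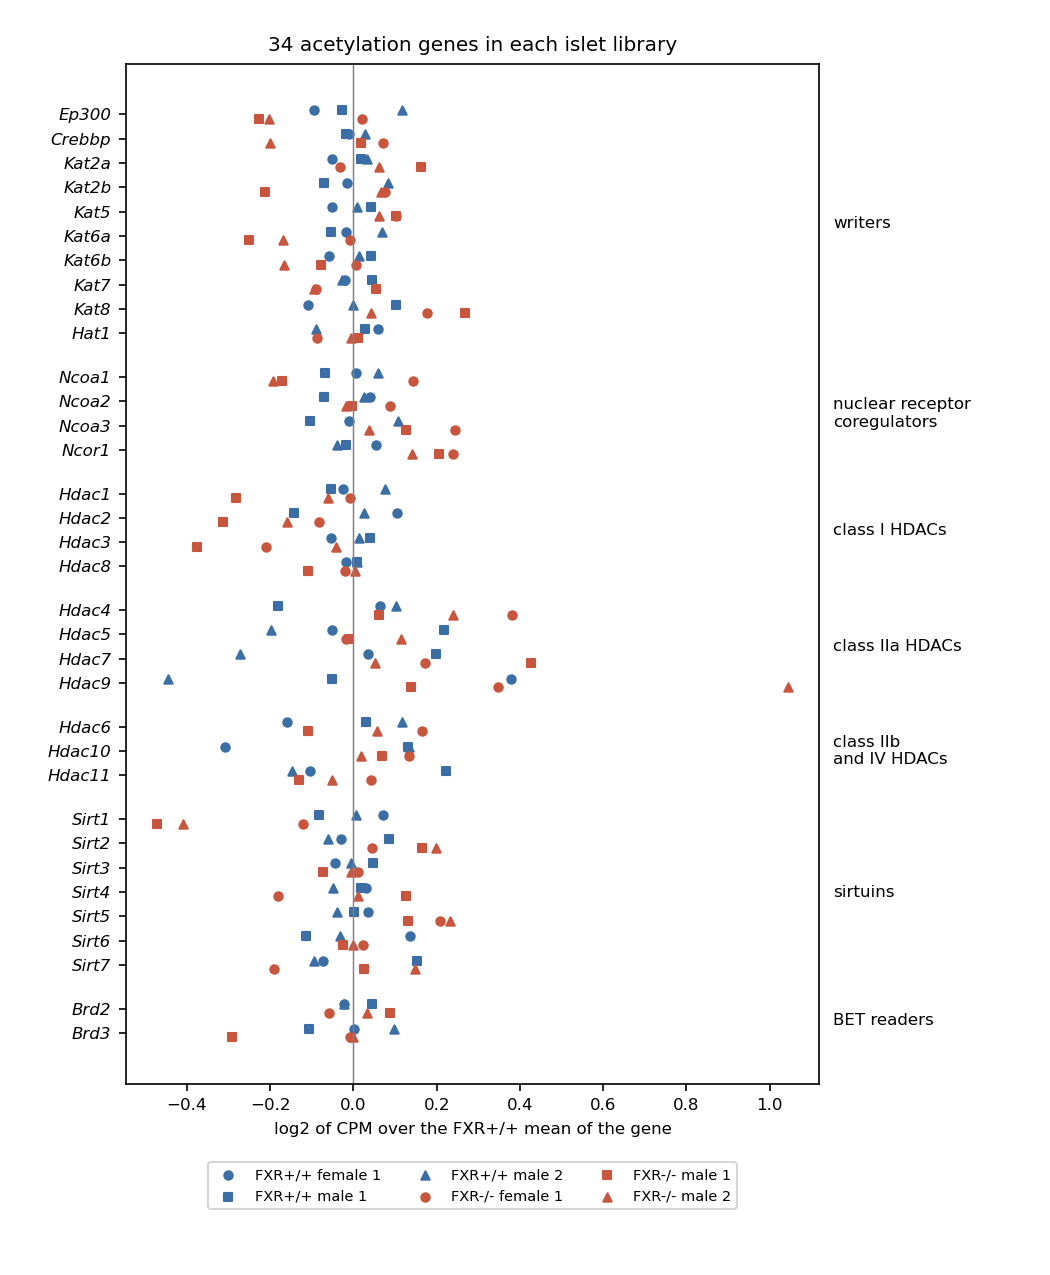
Each gene's CPM in each of the 6 libraries, as the log2 ratio to its FXR+/+ mean, by class. Blue marks FXR+/+, red FXR-/-, and the shape gives the replicate. Red and blue separate fully for *Kat5*, *Ncor1*, *Sirt1* and *Sirt5*, and most other points lie within 0.4 of 0.

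The sirtuins remove acetyl and other acyl groups with NAD as cosubstrate, *Sirt1*, *Sirt6* and *Sirt7* mainly in the nucleus and *Sirt3*, *Sirt4* and *Sirt5* in mitochondria. *Sirt1* (NCBI gene 93759, minus strand of chromosome 10, 63319005-63381704) was at 21.2, 19.1 and 20.3 CPM in FXR+/+ and at 18.6, 14.6 and 15.2 CPM in FXR-/-. Every FXR-/- library was below every FXR+/+ library, and both males were further below than the female. The means were 20.2 ± 1.07 and 16.1 ± 2.14 CPM (SD, n = 3), with a log2 fold change of -0.33 (standard error 0.10, 95% interval -0.57 to -0.10), an unadjusted p of 0.0120 and an adjusted p of 0.430 in edgeR. The interval corresponds to a change between -32.6% and -6.51%. By unadjusted p, *Sirt1* ranked 402 among the 14619 genes, and the exact permutation p was 0.10, the smallest possible.

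Over the 16 alternative analyses the log2 fold change of *Sirt1* ran from -0.43 to -0.29 and its adjusted p from 0.198 to 0.851. *Sirt1* lies on chromosome 10, as does the targeted *Nr1h4* at a distance of 26.1 Mb. On the same chromosome, *Sirt6*, closer to *Nr1h4* at 7.83 Mb, had a log2 fold change of 0.00 (95% interval -0.24 to 0.24), and *Hdac2*, at 52.5 Mb, a value of -0.18. The part of this linkage in the value of *Sirt1* was not tested. Of 7 lymphocyte markers, the 4 tested had a median of -0.68 on the log2 scale (1 of 4 lower at an unadjusted p under 0.05), with sums of 23.7 to 58.8 CPM in FXR+/+ and 21.2 to 35.6 CPM in FXR-/-, and their part in the value of *Sirt1* was not tested.

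*Sirt2*, mainly cytoplasmic and highest of the sirtuins per kilobase, was at 60.4, 65.4 and 59.0 CPM in FXR+/+ and at 63.6, 69.1 and 70.7 CPM in FXR-/-. The groups overlapped at the female FXR-/- library, each pair was higher in FXR-/-, and the log2 fold change was 0.14 (95% interval -0.05 to 0.32). *Sirt5*, the mitochondrial desuccinylase, was at 6.65, 6.49 and 6.31 CPM in FXR+/+ and at 7.49, 7.10 and 7.62 CPM in FXR-/-. Its groups did not overlap, with a log2 fold change of 0.19 (95% interval -0.12 to 0.50). *Sirt3*, *Sirt4*, *Sirt6* and *Sirt7* lay between -0.02 and 0.00, and 12.7% of the exon length of *Sirt3* is shared with genes on the opposite strand. Of the 7 tested genes that supply NAD, *Nampt* among them, 0 had an unadjusted p under 0.05 (median log2 fold change -0.05).

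**Figure D3:**
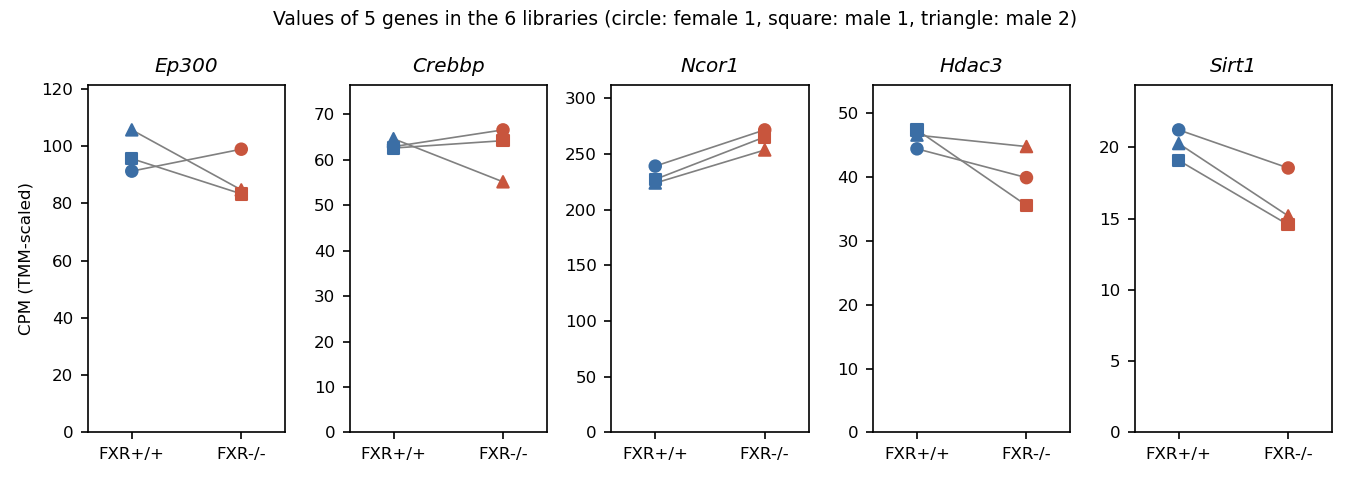
CPM of *Ep300*, *Crebbp*, *Ncor1*, *Hdac3* and *Sirt1* in the 6 libraries on axes that start at 0, with lines joining libraries of the same replicate number. All 3 lines point up for *Ncor1* and down for *Sirt1* and *Hdac3*, while those of *Ep300* and *Crebbp* cross.

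The BET readers bind acetylated histones and recruit the transcription machinery. *Brd2* was at 264.9, 277.5 and 265.0 CPM in FXR+/+ and at 258.4, 286.2 and 275.4 CPM in FXR-/-. The FXR-/- female lay below and male 1 above the FXR+/+ range, with male 2 inside it, and the log2 fold change was 0.02 (95% interval -0.17 to 0.21). Genes on the opposite strand share 9.78% of the exon length of *Brd2*, and reads in that stretch may not be told apart. *Brd3* had a log2 fold change of -0.10 and was lower in FXR-/- within each pair. Over the 16 alternative analyses its value ran from -0.19 with library size alone to -0.0022 with a term for acinar RNA.

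Counted by library values alone, the genotypes did not overlap for 4 of the 34 genes. FXR-/- was higher for 3 (*Kat5*, *Ncor1* and *Sirt5*; 8.02% of all genes) and lower for 1 (*Sirt1*; 7.37% of all genes). Within pairs of the same replicate number, 8 members were higher in FXR-/- in all 3 pairs (20.4% of all genes) and 5 were lower in all 3 (18.9%). When edgeR was given the replicate numbers as a block, 0 members had an adjusted p under 0.05 (lowest 0.198, *Sirt1*), against 0.164% of all genes. At an unadjusted p under 0.05, the block gave 3 higher members (*Ncor1*, *Hdac4* and *Hdac7*; 9.84% of all genes) and 2 lower members (*Sirt1* and *Hdac2*; 6.25% of all genes).

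The order of the levels was compared per kilobase of exon, which lessens the advantage of long genes. The length was the union of all annotated exons of a gene, and the annotation behind the counts is not given. The ranks and the range depend on that length. *Brd2* led with 34.4 ± 0.93 CPM per kb in FXR+/+ (SD, n = 3), clear of *Hdac6* at 25.1 ± 2.42, which overlapped *Hdac11* at 21.3 ± 3.10. *Hdac1* at 20.3, *Ncor1* at 17.9, *Hdac5* at 16.7 and *Hdac2* at 15.9 CPM per kb followed, and the same 7 genes led in FXR-/- islets. *Ep300* ranked 18 and *Crebbp* 23 of the 34. *Hdac9* closed the order at 0.47 ± 0.13 CPM per kb, below *Sirt5* at 1.06 ± 0.03 and *Hdac8* at 1.23 ± 0.01, so that the range spanned 73.3-fold. Of the 33 neighbouring pairs in this order, 21 overlapped in their FXR+/+ values and 12 did not.

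**Figure D4:**
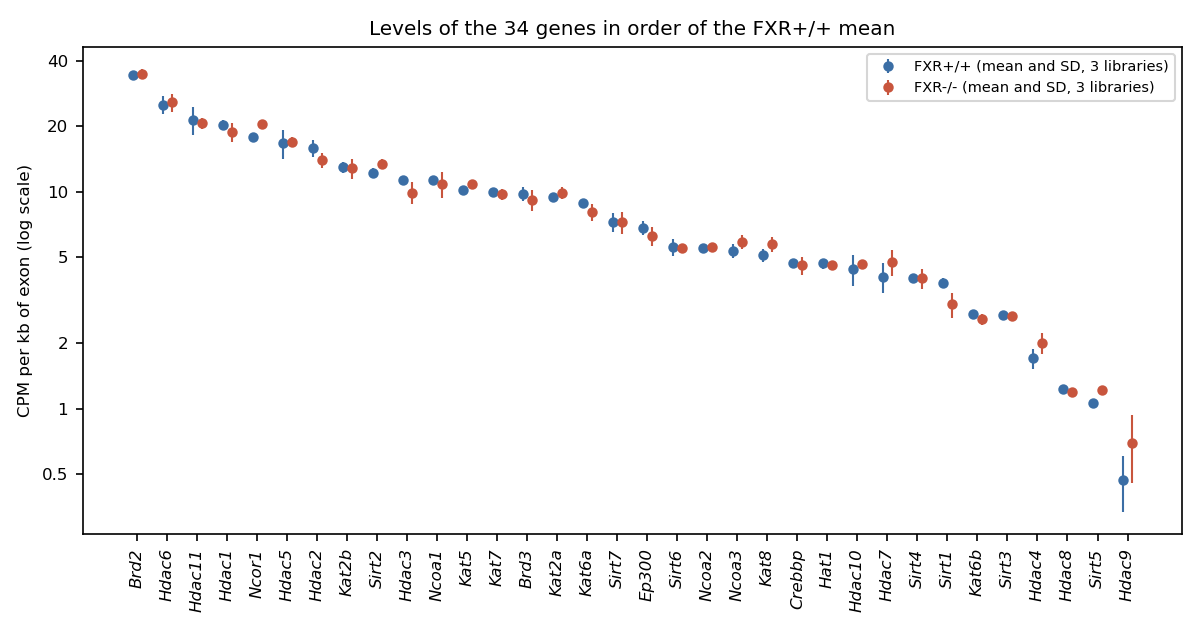
Level of each gene in CPM per kilobase of exon on a log scale, ordered by the FXR+/+ mean, with mean and SD of 3 libraries per genotype. The order runs from *Brd2* (34.4) to *Hdac9* (0.47), and the genotypes lie close together for nearly every gene.

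Sex was the other difference between the libraries. For the effect of sex, 0 of the 34 members had an adjusted p under 0.05 (lowest 0.686) where 0.0547% of all genes did, and 0 had an unadjusted p under 0.05 where 7.49% of all genes did. The largest differences were those of *Sirt1* (male over female -0.21, unadjusted p = 0.0807 in edgeR) and *Sirt7* (0.19). The X-linked members *Hdac6* and *Hdac8* differed by 0.02 and 0.00 on the log2 scale. For the interaction of genotype and sex, 0 members had an unadjusted p under 0.05 (lowest 0.0601, *Hdac10*), against 1.48% of all genes, and 0% of all genes had an adjusted p under 0.05. With 1 female library per genotype, only large interactions could be seen.

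The exon table listed 550 exons of the 34 genes, of which 112 passed the filter. Its reads were 7.31% (*Hdac5*) to 72.6% (*Kat6a*) of those in the gene table, by a counting rule not given in the sources used here, so that summed exon counts do not re-count a whole gene. At an adjusted p under 0.05, 0 of them were called in edgeR (lowest 0.563), against 0.0185% of all exons, and at an unadjusted p under 0.05, 3 were higher (4.68% of all exons) and 3 lower (3.11%). For *Sirt1*, the last exon, which holds most of the exon reads of the gene (63319005-63320964), had 270, 177 and 331 reads in FXR+/+ and 219, 120 and 192 in FXR-/-. Scaled to depth, the log2 fold change was -0.40 (standard error 0.15, unadjusted p = 0.0236 and adjusted p = 0.624 in edgeR). The other two tested exons of *Sirt1*, with 241 and 111 reads in all, had log2 fold changes of -0.07 (standard error 0.26) and 0.04 (0.39).

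The tested exons of *Ncor1* had values on both sides of 0. Its longest tested exon (62401377-62403462) had a log2 fold change of 0.35 (unadjusted p = 0.0479), its last exon, with 3732 reads, one of 0.05 (95% interval -0.22 to 0.33), and short exons near the 3′ end, 62321392-62321445 and 62325487-62325629, had -0.95 and -0.93 on 77 and 118 reads. Those single-exon values had adjusted p-values of 0.624 or above in edgeR. The upstream exon of *Crebbp* at its promoter (4213139-4213404) had 11, 16 and 20 reads in FXR+/+ and 28, 26 and 29 in FXR-/-. The counts did not overlap, with a log2 fold change of 1.00 (95% interval 0.33 to 1.66, adjusted p = 0.563), while the last exon of *Crebbp*, with 3237 reads, was at -0.01. The last exon of *Ep300* had 873, 760 and 1421 reads in FXR+/+ and 1021, 630 and 886 in FXR-/- (log2 fold change -0.10, 95% interval -0.39 to 0.20), and its 4 tested exons ranged from -0.20 to 0.11.

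**Figure D5:**
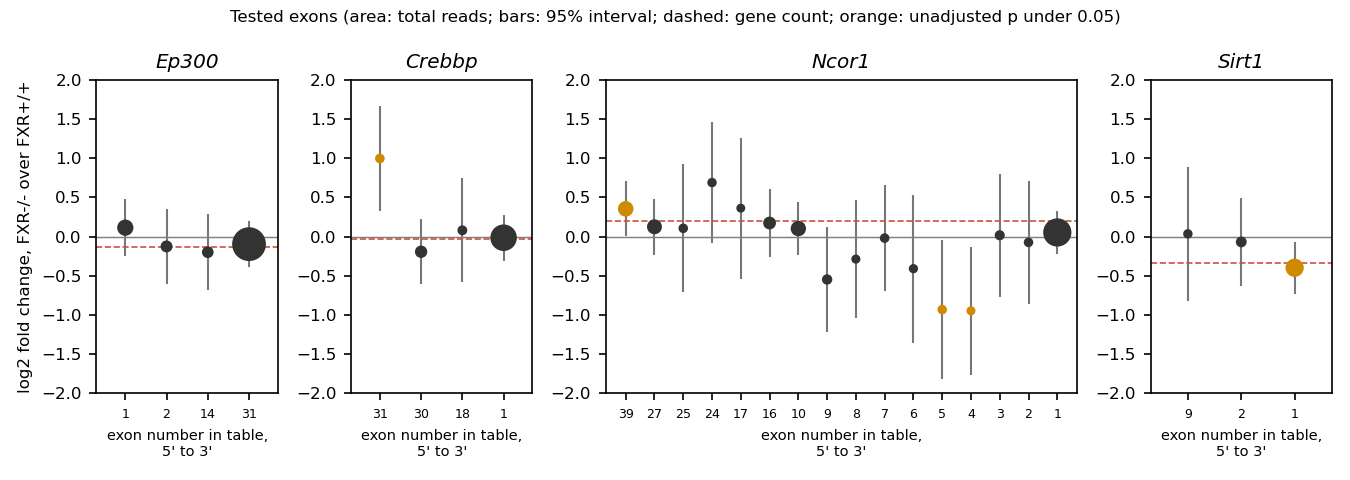
Log2 fold change, FXR-/- over FXR+/+, of the tested exons of 4 genes from the 5′ to the 3′ end, with 95% intervals and point areas that grow with the total reads. The dashed line is the value from the gene count. The last exons, which carry the most reads, lie at -0.10 (*Ep300*), -0.01 (*Crebbp*), 0.05 (*Ncor1*) and -0.40 (*Sirt1*).

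The machinery around the members was followed in 110 further genes, of which 109 were tested: 10 lists of subunits of the acetyltransferase and deacetylase complexes, other coactivators and suppliers of acetyl-CoA and NAD. Of these, 0 had an adjusted p under 0.05 in edgeR (lowest 0.341), 6 were higher (6.19% of all genes) and 4 lower (4.16% of all genes) at an unadjusted p under 0.05, and the median log2 fold change was -0.02. The 19 tested subunits of SAGA and ATAC, which carry KAT2A and KAT2B, had a median of -0.05, and the 15 of the TIP60 complex one of -0.02. *Kat14*, the second acetyltransferase of ATAC, was at 36.7 ± 2.99 CPM in FXR+/+ and at 45.9 ± 1.31 CPM in FXR-/- islets (SD, n = 3), without overlap (log2 fold change 0.33, adjusted p = 0.341 in edgeR). The 16 subunits that accompany KAT6A, KAT6B, KAT7 and KAT8 had a median of -0.08, with 2 lower and 0 higher at an unadjusted p under 0.05, beside the 4.16% and 6.19% of all genes.

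Of the HDAC1 and HDAC2 complexes, SIN3 (13 subunits) had 2 higher and 0 lower at an unadjusted p under 0.05 with a median of -0.03, NuRD (9 subunits) had 2 higher and 0 lower with a median of -0.01, and CoREST (6 subunits) had 0 and a median of -0.05, where 6.19% of all genes were higher and 4.16% lower. Among 15 other coactivators 1 was higher and 1 lower at an unadjusted p under 0.05, with a median of 0.04. *Kdm6a*, an X-linked histone demethylase, was the lower gene (log2 fold change -0.21, adjusted p = 0.457 in edgeR), and *Crtc3*, a coactivator of CREB that works with CBP and p300, was at 31.5 ± 0.75 CPM in FXR+/+ and at 37.9 ± 1.82 CPM in FXR-/- islets (SD, n = 3, log2 fold change 0.27, adjusted p = 0.422 in edgeR). The 5 genes of acetyl-CoA supply, *Acly* and *Acss2* among them, had 0 at an unadjusted p under 0.05 and a median of -0.01.

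Promoter sequences are shown for the member the study followed (*Ep300*) and for sirtuins whose genotypes did not overlap (*Sirt1* and *Sirt5*), since FXR binds DNA at repeats of the hexamer AGGTCA. The windows are the 250 bases before the RefSeq start in GRCm38.p6. They lie at chr15:81585964-81586213 on the plus strand for *Ep300*, chr10:63339036-63339285 on the minus strand for *Sirt1* and chr13:43365285-43365534 on the plus strand for *Sirt5*. The gene spans given above for *Ep300* and *Sirt1* reach further upstream than these RefSeq starts, so both windows lie inside those spans. Capitals mark AGGTCA and the CREB motif core TGACG on either strand, and CREB is named because it recruits CBP and p300.
Ep300: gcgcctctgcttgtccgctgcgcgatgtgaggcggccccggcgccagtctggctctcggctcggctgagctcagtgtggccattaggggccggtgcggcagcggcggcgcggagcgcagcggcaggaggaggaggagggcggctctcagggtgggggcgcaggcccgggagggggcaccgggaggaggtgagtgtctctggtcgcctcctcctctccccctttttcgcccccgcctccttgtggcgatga
Sirt1: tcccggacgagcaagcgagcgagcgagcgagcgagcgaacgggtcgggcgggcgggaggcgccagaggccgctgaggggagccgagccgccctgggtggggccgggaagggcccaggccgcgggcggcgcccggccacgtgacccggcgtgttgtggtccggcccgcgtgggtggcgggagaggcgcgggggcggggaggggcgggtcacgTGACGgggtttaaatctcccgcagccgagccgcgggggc
Sirt5: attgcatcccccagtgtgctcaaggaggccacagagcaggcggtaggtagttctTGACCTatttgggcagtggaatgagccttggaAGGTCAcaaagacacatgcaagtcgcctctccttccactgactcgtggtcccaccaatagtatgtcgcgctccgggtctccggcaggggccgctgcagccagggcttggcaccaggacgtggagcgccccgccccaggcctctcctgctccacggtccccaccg

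The *Ep300* window held neither motif, that of *Sirt1* held TGACG once, beginning 39 bases before the start, and that of *Sirt5* held AGGTCA in both orientations, beginning 196 and 164 bases before the start. The windows of *Kat5* and *Ncor1*, the other members whose genotypes did not overlap, are not shown and held no AGGTCA. Each window of *Kat5* held TGACG once, and those of *Ncor1* did not hold it. RefSeq promoters were matched for 28 of the 34 members, with 41 start sites. AGGTCA on either strand was present in 5 of the 41 windows (12.2%) and in 14.0% of the 32851 windows of all genes. The inverted repeat AGGTCANTGACCT, to which FXR binds as a dimer with RXR, was in 0 of the 41 and in 2 of all windows (0.00609%). TGACG was in 12 of the 41 (29.3%) and in 17.8% of all windows. The members' windows were richer in CpG, with a median of 17 CG pairs and 61.2% G and C against 6 and 52.4% over all windows. A match is a description of the letters and not a site of binding.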

How the data were processed

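Mouse islet RNA from 6 libraries was analysed. Per the labels, poly(A) RNA was fragmented and made into cDNA with random hexamers, with no step that marks strand. The submitters' processing notes name HISAT; the counting rule, its use of strand and the annotation are not given in the sources used here. The authors deposited whole-number read counts per gene, without normalization, and likewise per exon, with coordinates of GRCm38. The authors' own comparison of the genotypes (mean, log2 fold change and p-values) was not used. Every per-sample column was used, and 0 lines lacked a gene.

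The tests on gene and exon counts used edgeR 4.0.16 under R 4.3.3 (filterByExpr by genotype with a minimum count of 10 and a minimum total of 15, TMM, glmQLFit, glmQLFTest) with terms for sex and genotype, with Benjamini-Hochberg adjustment over all genes or exons. Prior and residual degrees of freedom were 4.43 and 3. CPM were scaled by TMM, 95% intervals used the t distribution of the fit, and levels per kilobase used the union of exons in GENCODE vM21. The permutation tests were exact, two-sided and on log2(CPM + 0.01), over 20 relabellings. The fit was tested on simulated data, and the outcome of that test is not reported here. The members and all lists were chosen with earlier results of these data known.

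Values in every library were given for *Ep300*, *Crebbp*, the member of each class with the highest level per kilobase and members with an unadjusted p under 0.05. *Kat5*, *Hdac2*, *Hdac3*, *Hdac4*, *Hdac7*, *Hdac9*, *Sirt5* and *Ncoa1* were added after their values were seen. Genes of other lists were named at an unadjusted p under 0.01, and a few others for their role. Alternatives were no term for sex, the replicate number as a block, DESeq2 1.42.0, scaling by DESeq2's size factors or library size alone, no filter or at least 10 counts in every library, a term for acinar RNA, males alone, summed exon counts and each library left out. With a term for sex, leaving out either female library leaves the genotype difference to the males. Those settings and males alone are nearly the same comparison and not separate tests. The labels give sex and an animal number within each genotype and state no pairs, so pairs by number are a choice made here. Deviations from the genotype means had correlations across genes of 0.361 for the females, 0.367 for male 1 and 0.323 for male 2, against 0.0200 or below for libraries with different numbers. Deviations from a genotype mean offset one another, so these correlations are not independent. The females also share their sex, and male 1 had the highest acinar share in each genotype. The part of these in the correlations was not tested. Some genes of the other lists are not reported here. Differential promoter use, protein levels and histone marks were not analysed here.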

Additional observations from a re-analysis of the deposited data

How the results depend on the processing

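Over the 16 alternatives, 0 members reached an adjusted p under 0.05 in any. Males alone and the settings without either female library are nearly the same comparison, so the 16 are not independent. The number of higher members at an unadjusted p under 0.05 (1) was 3 with the replicate block and 0 with scaling by library size alone, and it ran from 0 to 2 as each library was left out (0 without FXR+/+ male 1 or FXR-/- male 2, 2 without FXR+/+ male 2 or FXR-/- male 1). *Ncor1* was among them under 6 of the 16 alternatives and in none that left out a library, and *Sirt1* was among the lower members under all 16. Where the number of higher members stayed at 1 without *Ncor1*, the member was *Hdac4* with the acinar term, *Hdac10* with summed exon counts, and *Hdac9* in males alone or without either female library. The 2 higher members were *Hdac4* and *Ncoa3* without FXR+/+ male 2, and *Hdac4* and *Hdac9* without FXR-/- male 1. The number of lower members (1) was 2 with the replicate block, with library size alone and in males alone, and 1 to 2 as libraries were left out (2 without FXR+/+ female 1 or male 1, or FXR-/- female 1 or male 2). The second was *Hdac2* with the block, library size alone or without FXR+/+ male 1, *Ep300* in males alone or without either female, and *Hdac3* without FXR-/- male 2. The members whose genotypes did not overlap numbered 2 with library size alone and 5 with summed exon counts, against 4. The shares of all genes (8.02% higher and 7.37% lower) belong to the main scaling. No share of all genes is given here for the other settings, so the 2 and the 5 cannot be set against one. For the counts at an unadjusted p under 0.05, such shares are given for the main fit, the block and DESeq2 alone. The counts under the other settings therefore cannot be read as more or fewer than among all genes. Among all genes at that threshold, the percentage higher in FXR-/- reached 66.1% without FXR-/- male 2. Library size alone moved the median log2 fold change of the members to -0.10 and that of all genes to -0.09, and the share of higher genes among those at an unadjusted p under 0.05 from 59.8% to 29.0%. The median of the members ran from -0.0089 to 0.0038 as libraries were left out.

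Of 288 log2 fold changes of the 18 members given by library, 269 kept their direction. With library size alone *Kat5* was at -0.0061, *Hdac5* at -0.059, *Hdac6* at -0.052 and *Brd2* at -0.073. With the acinar term *Kat2b* was at 0.060, *Hdac5* at -0.052 and *Brd2* at -0.0057. In males alone *Hdac6* was at -0.098, and with summed exon counts *Crebbp* was at 0.0014 and *Kat5* at -0.0051. Leaving out each library gave -0.092 to 0.042 for *Crebbp*, -0.086 to 0.069 for *Kat2b*, -0.079 to 0.15 for *Hdac5*, -0.098 to 0.13 for *Hdac6* and -0.0064 to 0.050 for *Brd2*. It also gave -0.18 to -0.0064 for *Ncoa1*, -0.18 to -0.039 for *Hdac1*, 0.056 to 0.11 for *Kat5* and 0.087 to 0.17 for *Sirt2*. All of these lie within the intervals of the values reported, and the cause was not tested. With 3 libraries per genotype, the median standard error of the members was 0.10. By the unadjusted interval of a single gene, differences well under 0.25 on the log2 scale could not be resolved. At the adjusted threshold of the main edgeR fit, which called 0 genes, much larger differences were not called either. Examples are *Nr1h4* at -1.07 (adjusted p = 0.215 in edgeR) and *Cox6a2* at 1.12 (adjusted p = 0.197 in edgeR). This belongs to that fit, as the replicate block called 24 and DESeq2 158 of all genes at the same threshold.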
